A study of Homo sapiens with 6 samples.

Results

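The plasminogen activators, their cell-surface receptors and their inhibitors were followed in HK2 cells, an established line of human proximal tubular epithelial cells. The set held 7 genes of the 38100 listed in the deposited tables, chosen by symbol from what their products do: the activators PLAU and PLAT, the receptors PLAUR, ANXA2 and S100A10, and the inhibitors SERPINE2 and SERPINB2. The cells were stimulated with TGF-β1 and were infected with empty-vector virus (AdCtrl) or with an adenovirus that expresses SIRT4 (AdSIRT4), with 3 samples in each group and a WT genotype label on all of them. Since TGF-β1 was given to both groups, the comparison asks how added SIRT4, a sirtuin, altered transcripts in cells already under that stimulus, and no unstimulated sample stands beside them. RNA-sequencing of poly(A) RNA gave total counts per sample of 41537353 to 85684748.

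Plasminogen is an inactive serum protein that becomes the protease plasmin when an activator cuts it. Urokinase and tissue plasminogen activator do this cutting, the first mostly at the cell surface and the second mostly on fibrin. Plasmin breaks down fibrin and parts of the extracellular matrix and can activate growth factors and matrix metalloproteinases, so the balance of activators and inhibitors has long been studied in the tubular epithelium of the fibrotic kidney.

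The short promoter stretches below are shown because they hold core-promoter or AP-1 letters upstream of an annotated start of PLAUR, ANXA2 or SERPINB2. SERPINB2 was the gene without a single read. Capitals mark the motif, and each stretch is written 5′ to 3′ on the strand of its gene, from RefSeq on GRCh38.p14. AP-1 letters were TGANTCA, and TATA box letters were TATAAA.
PLAUR, AP-1 letters, chr19:43670338-43670366: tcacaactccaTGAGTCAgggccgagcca
ANXA2, AP-1 letters, chr15:60398096-60398124: gcgggccggggTGAGTCAcccctgacttg
SERPINB2, AP-1 letters, chr18:63887592-63887620: gagtaaaatgtTGAATCActcaaaggaca
ANXA2, TATA letters, chr15:60398001-60398028: gatgtggcgggTATAAAagccccaccca
SERPINB2, TATA letters, chr18:63887664-63887691: gggcaaagctgTATAAAaccagtcatta

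The AP-1 letters began 186 bases before the annotated start of PLAUR, 127 before that of ANXA2 and 102 before that of SERPINB2. The TATA letters began 31 bases before the start of ANXA2 and 30 before that of SERPINB2. Each stretch lies inside the GENCODE span of its gene given below, so these starts differ from the ends of those spans. Both strands of windows from 250 bases before to 50 bases after each start were searched, and 6 of the 7 genes had such a window, with 8 windows in all because PLAU and SERPINE2 had 2 each. AP-1 letters were in 3 of these 8 windows and in 7.71% of all 35116 windows, and TATA letters were in 2 of the 8 and in 11.5% of all. The letters CAGACA, a SMAD element that lies within none of the stretches above, were in 3 of the 8 windows, those of PLAU, S100A10 and SERPINB2, and in 16.9% of all. These matches describe the sequence and are not evidence that a factor bound there.

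SIRT4 itself was counted 31, 47 and 57 times in AdCtrl replicates 1, 2 and 3 and 1996, 7995 and 6827 times in the AdSIRT4 samples. All AdSIRT4 samples were far above all AdCtrl samples, with a log2 fold change of 6.36 (SE 0.357, edgeR adjusted p = 0.00801), although these counts do not separate viral from endogenous transcript. Of 16 tubular epithelial markers, 9 had a mean FPKM (fragments scaled to transcript length and library size) of at least 1, among them KRT8, KRT18, PAX8 and GGT1, whereas ANPEP, AQP1, CUBN and LRP2 of the proximal tubule were under 0.1. The summed FPKM of those 16 genes was 937 to 980 in AdCtrl and 905 to 1130 in AdSIRT4. Of 5 endothelial markers 0 reached a mean FPKM of 1, and 3 of 8 fibroblast markers did (COL1A1, LUM and ACTA2, summed 10.1 to 11.2 and 9.53 to 10.7 over the 8 genes). The myeloid markers PTPRC, CSF1R and AIF1 were under 0.1, while CD14 and CD68 passed 1, and the list summed to 18.6 to 20.7 in AdCtrl and 20.1 to 23.8 in AdSIRT4. Their part in the differences below was not tested.

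One library stood apart. In AdSIRT4 replicate 1, the deviation of a gene from the mean of the other AdSIRT4 samples went down with transcript length. Spearman's rho was -0.586 across 17720 genes, a description since genes are not independent. The median deviation there was 0.66 on the log2 scale in the shortest 10% of genes and -0.74 in the longest 10%. The same rho, of each sample against the others of its group, lay between -0.18 and 0.17 in the AdCtrl samples. It was 0.50 and 0.52 in AdSIRT4 replicates 2 and 3, where the mean compared against includes replicate 1. Fold changes of the tested members are therefore shown with and without this sample, as are those of several list genes.

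Per length, the transcripts of the set spanned a wide range of levels in both groups. S100A10, the small protein that pairs with annexin A2 and docks plasminogen, was highest at 528.6 ± 20.1 FPKM in AdCtrl (mean ± SD, n = 3) and 606.3 ± 173.1 in AdSIRT4. ANXA2, its membrane-binding partner, followed at 393.9 ± 13.8 and 442.6 ± 94.4 FPKM. PLAU, which encodes urokinase, came next at 254.6 ± 23.0 and 246.8 ± 21.8 FPKM. These genes held ranks 90, 125 and 188 among all genes in AdCtrl, so urokinase and the annexin A2 complex were among the most abundant transcripts of these cells.

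The other members lay well below them. SERPINE2, which encodes protease nexin-1, an inhibitor of urokinase, plasmin and thrombin, was at 35.9 ± 1.85 FPKM in AdCtrl and 35.3 ± 2.32 in AdSIRT4. PLAUR, the urokinase receptor, was at 11.98 ± 1.07 and 15.4 ± 1.54 FPKM. PLAT, which encodes tissue plasminogen activator, was at 3.62 ± 0.403 and 3.71 ± 0.362 FPKM. The order was the same in both groups, and the ranges of neighbours in it did not overlap, apart from S100A10 and ANXA2 in AdSIRT4.

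Differences between the groups were small relative to their spread for most of the set. Across all genes, 7.93% of the 17720 tested had an unadjusted edgeR p under 0.05, 4.43% had such a p and were higher in AdSIRT4, and 0.0113% (2 genes) had an adjusted p under 0.05. Of the 6 members tested, 1 had an unadjusted p under 0.05, PLAUR, and 0 had an adjusted p under 0.05 with edgeR or with DESeq2. The median log2 fold change of the 6 was 0.14, beside 0.02 over all genes tested. Without AdSIRT4 replicate 1 that median was -0.041, beside -0.0046 over all genes, so its sign rested on 1 library. Whether the replicates came from separate cultures is not stated, and the study's reporting form describes its in vitro n as technical replicates, so the p-values may measure technical spread alone.

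The activators differed little. PLAU (chr10:73909177-73917497, plus strand, GENCODE annotation on GRCh38) had 690.3, 628.9 and 705.9 normalised counts (CPM, scaled to library size) in replicates 1, 2 and 3 of AdCtrl and 711.6, 597.7 and 704.1 CPM in those of AdSIRT4. The 2 groups overlapped, and replicate 2 was the lowest of each. The log2 fold change was -0.0083 (SE 0.123, edgeR adjusted p = 0.982) with a 95% interval of -0.30 to 0.28, which is 0.813- to 1.22-fold.

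PLAU shares 31.1% of its exon bases with C10orf55, a gene on the opposite strand. The library protocol describes no step that marks strand, so reads from the shared stretch cannot be told apart. C10orf55 was listed at 3.22, 3.11 and 3.19 CPM in AdCtrl and at 2.00, 2.42 and 3.69 CPM in AdSIRT4, far fewer reads than PLAU had.

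PLAT (chr8:42175233-42207724, minus strand) had 13.2, 11.3 and 12.9 CPM in AdCtrl and 12.5, 12.7 and 13.8 CPM in AdSIRT4. The groups overlapped, with the lowest value in AdCtrl and the highest in AdSIRT4. Its log2 fold change was 0.06 (SE 0.108, 95% interval -0.19 to 0.32, edgeR adjusted p = 0.860). Urokinase transcript exceeded that of tissue plasminogen activator in each sample, by 67.6, 72.9 and 71.1 times in AdCtrl and by 74.0, 60.4 and 66.1 times in AdSIRT4 (FPKM ratio). These ratios overlapped between the groups.

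PLAUR, the membrane-anchored receptor that holds urokinase at the cell surface, was the member that separated the groups. The gene (chr19:43646095-43670547, minus strand) had 18.6, 18.9 and 19.9 CPM in AdCtrl and 29.0, 22.2 and 24.3 CPM in AdSIRT4. The AdSIRT4 samples were all higher than the AdCtrl samples, with replicate 1 the highest. The difference was 1.31-fold (95% interval 1.08 to 1.60), a log2 fold change of 0.39 (SE 0.122) with an unadjusted p of 0.0143 in the edgeR quasi-likelihood fit.

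After adjustment over all genes, the edgeR p for PLAUR was 0.545, and the gene stood at place 460 of 17720 by p. The 2-sided exact permutation test, which left the replicate numbers out, gave p = 0.1, the smallest that 3 samples against 3 allow. Groups failed to overlap in 19.4% of all genes tested, and 9.66% were higher in AdSIRT4 in this way, so non-overlap of 1 member in 6 is near that background.

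The PLAUR difference was smaller, with a narrower interval, without AdSIRT4 replicate 1. In that fit the log2 fold change was 0.28 (95% interval 0.12 to 0.44, edgeR adjusted p = 0.0461), beside 6.71% of 18287 genes that passed the same threshold. With sample quality weights in limma voom it was 0.26 (adjusted p = 0.0435), beside 8.94% of genes that passed. With each library's length trend removed, PLAUR was at 18.9, 19.4 and 20.8 CPM in AdCtrl and 22.6, 23.4 and 26.6 CPM in AdSIRT4, which still did not overlap.

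**Figure D1:**
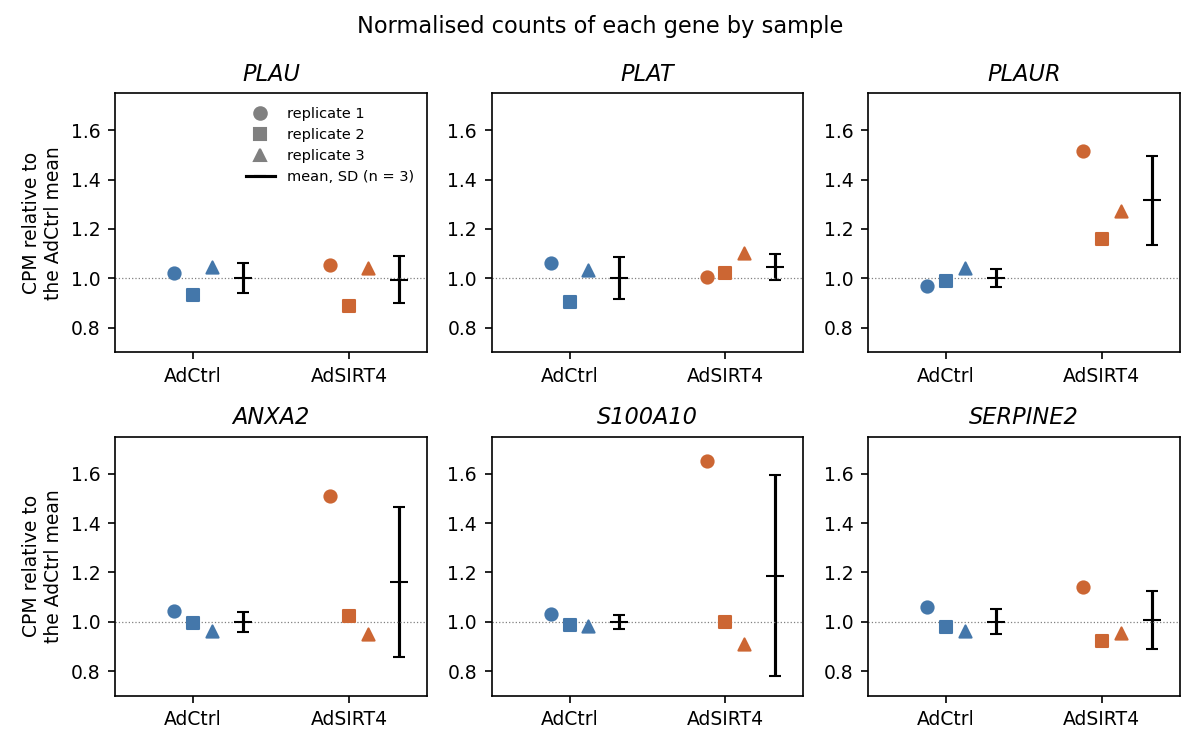
Normalised counts (CPM) of each gene divided by its AdCtrl mean, by group, with 1 point per sample and the mean and SD (n = 3) beside the points. PLAUR points of AdSIRT4 all lie above those of AdCtrl, while ANXA2 and S100A10 show 1 high point, AdSIRT4 replicate 1.

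The transcript of urokinase relative to that of its receptor was lower with AdSIRT4, which restates the PLAUR difference since PLAU differed little. How often ratios of other gene pairs separate the groups in this way was not computed. The FPKM ratio of PLAU to PLAUR was 23.3, 19.7 and 20.9 in AdCtrl and 14.4, 15.9 and 17.9 in AdSIRT4. All AdSIRT4 ratios lay below all AdCtrl ratios, with means of 16.1 ± 1.74 and 21.3 ± 1.86 (SD, n = 3; exact permutation p = 0.1, the smallest possible). PLAU and PLAUR differ in length (2.68 and 1.61 kb as implied by counts and FPKM), and the lowest ratio was that of AdSIRT4 replicate 1.

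The genes with the profile closest to that of PLAUR over the 6 samples were TNFRSF14, LCAT and CTSS, out of 14090 compared. Their mean-centred log2 CPM differed from it by a root mean square of 0.021, 0.034 and 0.037. For PLAU, the only member tested with a value below 0, the closest were TAF1A, SCARF1 and TTC13, at 0.023, 0.034 and 0.037. Profiles over 6 samples include the pull of replicate 1, and the likeness is a description.

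ANXA2 and S100A10, whose products form a heterotetramer that binds plasminogen and tissue plasminogen activator, moved together by sample. ANXA2 (chr15:60347134-60402883, minus strand) had 736.4, 702.9 and 679.0 CPM in AdCtrl and 1067, 721.2 and 671.9 CPM in AdSIRT4. S100A10 (chr1:151982915-151994390, minus strand) had 413.6, 395.2 and 394.1 CPM in AdCtrl and 663.0, 401.2 and 364.5 CPM in AdSIRT4. In both genes AdSIRT4 replicate 1 was high alone, and the other samples of that group overlapped AdCtrl.

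The log2 fold change of ANXA2 was 0.22 (SE 0.191, 95% interval -0.24 to 0.67, edgeR adjusted p = 0.771) over all samples. Without AdSIRT4 replicate 1 it was -0.024 (95% interval -0.15 to 0.10). For S100A10 it was 0.25 (SE 0.229, 95% interval -0.29 to 0.79, edgeR adjusted p = 0.776) and, without that sample, -0.071 (95% interval -0.20 to 0.056). Both estimates thus changed sign when 1 library was left out.

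Across the set, the shorter transcripts had the larger values in AdSIRT4 replicate 1, with ANXA2 above the shorter PLAUR. S100A10, the shortest at 0.766 kb, was 0.79 higher on the log2 scale in AdSIRT4 replicate 1 than the mean of the other AdSIRT4 samples, where the trend of all genes at its length gave 0.69. ANXA2, at 1.81 kb, was 0.62 higher, beside a trend of 0.41. PLAUR, at 1.61 kb, was 0.32 higher, beside a trend of 0.47, and PLAT, the longest at 3.46 kb, was 0.081 lower. SERPINE2 and PLAU lay between, 0.28 and 0.13 higher beside trends of 0.23 and 0.20.

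With the length trend removed, S100A10 was at 413, 407 and 430 CPM in AdCtrl and 460, 436 and 420 CPM in AdSIRT4. ANXA2 was then at 748, 720 and 705 CPM in AdCtrl and 857, 758 and 727 CPM in AdSIRT4. Both genes overlapped between the groups on this scale too. The FPKM ratio of S100A10 to ANXA2 stayed in a narrow band, at 1.33, 1.33 and 1.37 in AdCtrl and 1.46, 1.32 and 1.29 in AdSIRT4.

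Processed copies of ANXA2 exist elsewhere in the genome. ANXA2P1, ANXA2P2 and ANXA2P3 were not among the genes listed, so ANXA2 counts are uncertain where reads could be shared. ANXA2R, which encodes an annexin A2 receptor, had 1.59, 1.27 and 1.60 CPM in AdCtrl and 0.949, 1.10 and 0.837 CPM in AdSIRT4. The AdSIRT4 samples were all lower, with a log2 fold change of -0.63 (edgeR p adjusted over all genes 0.578).

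Among the inhibitors, SERPINE2 (chr2:223975112-224039319, minus strand) had 95.8, 88.7 and 87.2 CPM in AdCtrl and 103.4, 83.6 and 86.6 CPM in AdSIRT4. The groups overlapped, with both the highest and the lowest value in AdSIRT4. The log2 fold change was 0.0095 (SE 0.112, 95% interval -0.25 to 0.27, edgeR adjusted p = 0.978). Without replicate 1 the AdSIRT4 samples lay below AdCtrl, at -0.095 (95% interval -0.22 to 0.028). The PLAU to SERPINE2 ratio in FPKM was 6.84, 6.73 and 7.69 in AdCtrl and 6.54, 6.77 and 7.72 in AdSIRT4, so urokinase transcript stood at a like multiple of this inhibitor in both groups.

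SERPINB2 (chr18:63871692-63903890, plus strand) encodes plasminogen activator inhibitor type 2, a mostly intracellular serpin. No read was counted for it in any of the 6 samples. The limit that a count of 0 sets, taken as 3 counts and covering counting error only, was 0.0350 CPM in the deepest library and 0.0722 CPM in the shallowest. No comparison between the groups was possible.

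The wider system was covered by 100 further genes in 6 lists, of which 10 had no count in any sample and 71 were tested. Of these, 7 had an unadjusted edgeR p under 0.05 (9.86%, beside 7.93% of all genes), 6 higher and 1 lower in AdSIRT4, and 0 had an adjusted p under 0.05. Their median log2 fold change was 0.061, with 46 values above 0 and 25 below. Without AdSIRT4 replicate 1 that median was -0.017, again with the other sign. In the same fit 10 of these 71 genes had an edgeR adjusted p under 0.05, 3 higher and 7 lower, where 6.71% of all genes passed. Among all genes tested in both fits, 606 passed as higher and 609 as lower.

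The list of plasminogen, plasmin inhibitors, other activator inhibitors and related genes gave 4 tested genes of 12. SERPINF2, which encodes alpha-2-antiplasmin, the main fast inhibitor of plasmin, had 33.0, 32.2 and 27.7 CPM in AdCtrl and 24.5, 21.7 and 19.3 CPM in AdSIRT4. All AdSIRT4 samples were lower. The log2 fold change was -0.51 (SE 0.127, unadjusted p = 0.00512, adjusted p = 0.494, edgeR), and it was -0.60 without AdSIRT4 replicate 1 (adjusted p = 0.00554).

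SERPINI1, which encodes neuroserpin, an inhibitor of tissue plasminogen activator, was named after its values were seen. It had 0.370, 0.447 and 0.389 CPM in AdCtrl and 1.03, 0.661 and 0.615 CPM in AdSIRT4. All AdSIRT4 samples were higher, by 0.91 on the log2 scale, with an edgeR adjusted p = 0.563.

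The intracellular serpins of the SERPINB2 clade gave 4 tested genes of 11, and 4 of the 11 had no count. SERPINB8, an inhibitor of furin-like proteases, had 9.27, 9.63 and 8.76 CPM in AdCtrl and 12.3, 13.6 and 15.9 CPM in AdSIRT4. Every AdSIRT4 sample was higher, with a log2 fold change of 0.60 (SE 0.126, unadjusted p = 0.00207, adjusted p = 0.494, edgeR), and 0.67 without AdSIRT4 replicate 1 (adjusted p = 0.00361). SERPINB7, also named after its values were seen, was 1.45 higher on the log2 scale (edgeR adjusted p = 0.545) at a mean of 0.301 CPM in AdCtrl and 0.816 in AdSIRT4. Without AdSIRT4 replicate 1 it was 1.36 higher (edgeR adjusted p = 0.0852).

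Partners and clearance receptors of the urokinase receptor gave 16 tested genes of 19, 5 above 0 and 11 below, with 0 at an unadjusted p under 0.05. CAV1, which encodes caveolin-1, had the smallest p, at 152.4, 148.4 and 139.7 CPM in AdCtrl and 182.8, 175.8 and 155.5 CPM in AdSIRT4. Its groups did not overlap, and the log2 fold change was 0.22 (edgeR adjusted p = 0.658). Without AdSIRT4 replicate 1 it was 0.17 (edgeR adjusted p = 0.141). In that fit 2 genes of this list had an edgeR adjusted p under 0.05, beside 6.71% of all genes. They were EGFR, higher at 0.22 (edgeR adjusted p = 0.0304), and VLDLR, lower at -0.24 (edgeR adjusted p = 0.0473). Over all 6 samples, groups did not overlap in 1 gene that was higher, CAV1, and in 3 that were lower, VLDLR, ITGB5 and ITGA5. Over all genes tested, groups did not overlap in 19.4%. Other plasminogen binding proteins gave 9 tested genes of 9, also with 0 at an unadjusted p under 0.05. The smallest p was that of ITGAM, an integrin chain listed at no more than 0.529 CPM (log2 fold change 0.98, edgeR adjusted p = 0.672). Without AdSIRT4 replicate 1, 1 gene of this list had an edgeR adjusted p under 0.05. It was PLGRKT, which encodes a plasminogen receptor, lower at -0.45 (edgeR adjusted p = 0.0332).

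Pericellular serine proteases, their receptors and Kunitz inhibitors gave 18 tested genes of 25. F2RL2, a thrombin-responsive receptor gene at under 1 CPM, was the single one under an unadjusted p of 0.05 (log2 fold change 0.89, edgeR adjusted p = 0.612). Without AdSIRT4 replicate 1, 3 genes of this list had an edgeR adjusted p under 0.05, all lower, beside 6.71% of all genes. They were HPN (-0.50, edgeR adjusted p = 0.0166), F12 (-0.64, edgeR adjusted p = 0.0201) and PROCR (-0.28, edgeR adjusted p = 0.0332). Annexins and S100 proteins other than the members gave 20 tested genes of 24, 15 above 0 and 5 below. In that list S100A3 had the smallest p, with a log2 fold change of 0.52 (edgeR adjusted p = 0.615) and AdSIRT4 replicate 1 the highest sample at 17.9 CPM. Without that sample its log2 fold change was 0.26 (edgeR adjusted p = 0.152). ANXA8, named after its values were seen, overlapped between groups at a log2 fold change of 0.67 (edgeR adjusted p = 0.628), and had 0.89 without AdSIRT4 replicate 1 (edgeR adjusted p = 0.0238). ANXA6 went the other way, with all AdSIRT4 samples lower, at -0.21 (edgeR adjusted p = 0.668). Without AdSIRT4 replicate 1 it was -0.28 (edgeR adjusted p = 0.0260). These 2 were the genes of this list that passed in that fit, beside 6.71% of all genes.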

How the data were processed

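RNA-sequencing was analysed from 2 tables of 6 samples. Per the labels, reads were handled with fastp 0.21.0, HISAT2 2.1.0, StringTie 2.1.5 and DESeq2 1.30.1 on hg38. The authors deposited raw counts per gene and a second table without a named unit, whose values behave as FPKM. The labels count the cell line up with each sample while titles give HK2, so all were taken as HK2.

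Counts were tested with edgeR 4.0.16 (R 4.3.3; filterByExpr, minimum count 10; TMM; robust quasi-likelihood; Benjamini-Hochberg over all genes). Alternatives used limma 3.58.1 and DESeq2 1.42.0. Transcript lengths were implied by counts and FPKM, and length trends were removed by loess. Python 3.11.15 was used for tables. The procedure was also run on simulated counts with no length trend, outlying library or pairing, and with changes larger than those of the members. That run does not show how it performs under the conditions of these data.

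The members and gene lists were chosen with earlier results of these data known. Named list genes had an unadjusted p under 0.01 or the smallest p of their list, with exceptions named after their values were seen. These exceptions were SERPINI1, SERPINB7, ANXA8, ANXA6, PLGRKT, HPN, F12, PROCR, EGFR, VLDLR, ITGB5 and ITGA5. Some genes of this system are not reported here. Deviations from group means correlated at 0.210, 0.154 and 0.255 between samples of the same number and at -0.221 to 0.055 otherwise. The numbers were therefore taken to pair the samples. The main edgeR fit and the permutation tests were nevertheless unpaired, and the pairing entered only as a replicate block in alternative fits. With that block in edgeR, the unadjusted p of PLAUR was 0.0247. No library duplicated another (chi-square per gene 9.97 to 237 within groups).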

Additional observations from a re-analysis of the deposited data

How the results depend on the processing

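Each of the 6 tested genes was refitted under 19 alternatives. PLAUR stayed above 0 in all 19 (0.26 to 0.48), with an unadjusted p under 0.05 in 16 and an adjusted p under 0.05 in 2 (adjusted p 0.0435 to 0.971). With the replicate block in edgeR its log2 fold change was 0.39 (edgeR adjusted p = 0.680), and the block changed no member's call in edgeR. In limma on log2(FPKM + 1) with the replicate block, 0 members had an unadjusted p under 0.05, beside 1 in edgeR. Leaving out single samples gave 0 to 1 (0 without AdCtrl replicate 1 or 2). At an adjusted p, 1 member passed in limma voom with sample weights, and leaving out single samples gave 0 to 1 (1 without AdSIRT4 replicate 1). Members whose groups did not overlap numbered 1 to 2 when single samples were left out, the second being SERPINE2 without AdSIRT4 replicate 1.

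Of the other genes in the lists, 7 had an unadjusted p under 0.05, against 16 with the length trend removed, 17 with the replicate block added to that, 21 with voom sample weights and 3 to 26 when single samples were left out (3 without AdCtrl replicate 1, 4 without AdCtrl replicate 2 or 3, 11 without AdSIRT4 replicate 3 and 26 without AdSIRT4 replicate 1). Over all genes, the same count was 1406 in edgeR, 2466 and 2467 with the length trend removed without and with the replicate block, 4876 with voom weights and 4446 without AdSIRT4 replicate 1, so the list counts rose along with those of all genes. Calls over all genes at an adjusted p under 0.05 went from 2 to 1227 without AdSIRT4 replicate 1, to 1584 with voom weights and to 12 with the length trend removed.

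DESeq2 was run on the genes that passed the filter of edgeR (212 calls, PLAUR adjusted p = 0.182) and on all genes with a count (118 calls, PLAUR adjusted p = 0.323). The unfiltered fit was seen first, so this choice was made after seeing the data, and neither called a member.

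Uncalled estimates changed sign in 17 of 114 refits, among them those of ANXA2 and S100A10, at 0.22 and 0.25 in the main fit. Both were below 0 without AdSIRT4 replicate 1. SERPINE2 was -0.028 in limma on log2(FPKM + 1), with its mean filter and with its replicate block, -0.029 with a pseudocount of 0.1, -0.041 with the length trend removed, -0.040 with the replicate block added and -0.10 with voom weights. S100A10 was -0.020 with voom weights. When single samples were left out, SERPINE2 ranged from -0.095 to 0.074, PLAU from -0.058 to 0.074, PLAT from -0.0067 to 0.11, ANXA2 from -0.024 to 0.34 and S100A10 from -0.071 to 0.41. The cause was not tested.

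SERPINB2 could not be tested at this depth. Levels per length moved by less than 1 SD in all 12 comparisons with scaled counts per kb.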
